A study of Caenorhabditis elegans with 8 samples.

Results

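The genes described here encode the chain of proteins that carries an insulin signal from the cell surface to a transcription factor in Caenorhabditis elegans. They were chosen by their place in that chain, from the receptor daf-2 to the transcription factor daf-16 and without the ligands, and all 9 were found among the 46928 gene rows of the count files. RNA was sequenced from sorted cells of 2 genotypes, wild type (N2) and skn-1gf(lax188), which carries a gain-of-function allele of skn-1, the gene of a transcription factor that activates detoxification genes. There were 4 libraries of each genotype, labelled as biological replicates with no further account of their origin, so the p-values measure the spread between these preparations, which may be partly technical. Animals of both genotypes carried the daf-7p::gfp transgene, in which the promoter of a TGF-beta ligand gene made mainly in the ASI pair of sensory neurons drives a green fluorescent protein. They were grown at 20 °C, and each preparation started from about 250000 synchronised larvae of the L4 stage, which were dissociated with a detergent, a reductant and Pronase before the sort. No other treatment, time point or allele enters the comparison.

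When an insulin-like peptide binds the receptor tyrosine kinase DAF-2, the lipid kinase AGE-1 with its adaptor AAP-1 makes a phosphoinositide signal, and the phosphatase DAF-18 removes it. That signal brings the kinase PDK-1 to the kinases AKT-1, AKT-2 and SGK-1, and the AKT kinases phosphorylate DAF-16, a FOXO factor, which then stays out of the nucleus. Low signalling lets DAF-16 enter the nucleus, where it promotes dauer formation, stress resistance and long life. The pathway is known to meet SKN-1 as well, since kinases at the AKT and SGK level also phosphorylate SKN-1 and limit its entry into intestinal nuclei. Most of this control acts on proteins, and RNA counts do not measure it.

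The libraries held 2976889 to 10740970 gene counts each. The label names the cells as neurons, but transcripts of other tissues were abundant. The extraction step in the labels speaks of homogenised animals and does not name the sorted cells. The summed level of 8 ASI marker genes was 11.5 to 25.0 CPM (read counts per 1000000 of the TMM-scaled library) in wild type and 11.2 to 175 in skn-1gf. Of these, 6 (ins-6, ins-4, str-3, gpa-4, gpa-5 and str-2) had 0 counts in at least 1 library. Pan-neuronal markers summed to 276 to 2132 CPM over the 8 libraries, germline markers to 4023 to 6901 CPM and body wall muscle markers to 7282 to 31346 CPM. The pathway genes are expressed in many tissues, so their counts cannot be placed in ASI neurons, and fewer cells of a type cannot be told apart from less RNA per cell. Wild-type replicate 2 had the lowest TMM factor (0.658, against 0.877 to 1.29 in the others), the highest share of gene counts in rRNA genes (32.8%, against 6.90 to 21.8%) and the fewest genes detected (11909, against 14248 to 20394).

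No gene of the pathway passed the test for a difference between genotypes. All 9 were expressed above the low-count filter, and edgeR's quasi-likelihood test gave each an adjusted p of 0.999884 over the 12734 genes tested. Over all tested genes the same test called 0 genes (0%), with 517 genes (4.06%) at an unadjusted p under 0.05, none of them a pathway gene, and DESeq2 called 6 of the same 12734 genes, again none of the pathway. Log2 fold changes, skn-1gf minus wild type, were positive in 5 members and negative in 4, with a median of 0.16 beside 0.04 over all genes. In every member the libraries of both genotypes overlapped, where 2.17% of all tested genes had no overlap (1.01% with skn-1gf above and 1.15% with skn-1gf below).

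Levels of different genes were set side by side as CPM per kb of exon, because long genes collect more reads. Among the 9, daf-18 was highest at 112 ± 7.36 in wild type and 107 ± 20.6 in skn-1gf (SD, n = 4 each). It was followed by akt-1 at 70.0 ± 7.29 in wild type and 67.4 ± 7.75 in skn-1gf and daf-16 at 53.1 ± 9.82 in wild type and 60.7 ± 15.3 in skn-1gf. The phosphatase that opposes the signal, the main AKT kinase and the FOXO factor thus lay above the receptor itself, daf-2, at 30.1 ± 8.25 in wild type and 26.1 ± 1.1987 in skn-1gf. The lipid kinase subunits came next, with aap-1 at 21.981 ± 11.3 in wild type and 25.8 ± 10.7 in skn-1gf and age-1 at 18.6 ± 3.61 in wild type and 20.8 ± 4.43 in skn-1gf.

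The lowest levels per kb of exon were those of the kinase genes pdk-1, akt-2 and sgk-1. They were 10.3 ± 2.07 in wild type and 13.1 ± 4.89 in skn-1gf for pdk-1, 11.2 ± 6.32 in wild type and 6.78 ± 3.13 in skn-1gf for akt-2 and 2.24 ± 1.78 in wild type and 3.62 ± 1.99 in skn-1gf for sgk-1. Among tested protein-coding genes, the mean level over 8 libraries stood at percentile 93.7 for daf-18, 66.9 for daf-2 and 16.08 for sgk-1.

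The 3 lowest members are the 3 that lie on the X chromosome, while daf-2 (III), age-1 (II), aap-1 (I), akt-1 (V), daf-18 (IV) and daf-16 (I) are autosomal. The same contrast ran through these libraries as a whole. The median level of tested protein-coding genes was 7.03 CPM per kb of exon for 1646 genes on X and 17.5 for 10253 autosomal genes. The low place of the X-linked members was thus not particular to the pathway.

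**Figure D1:**
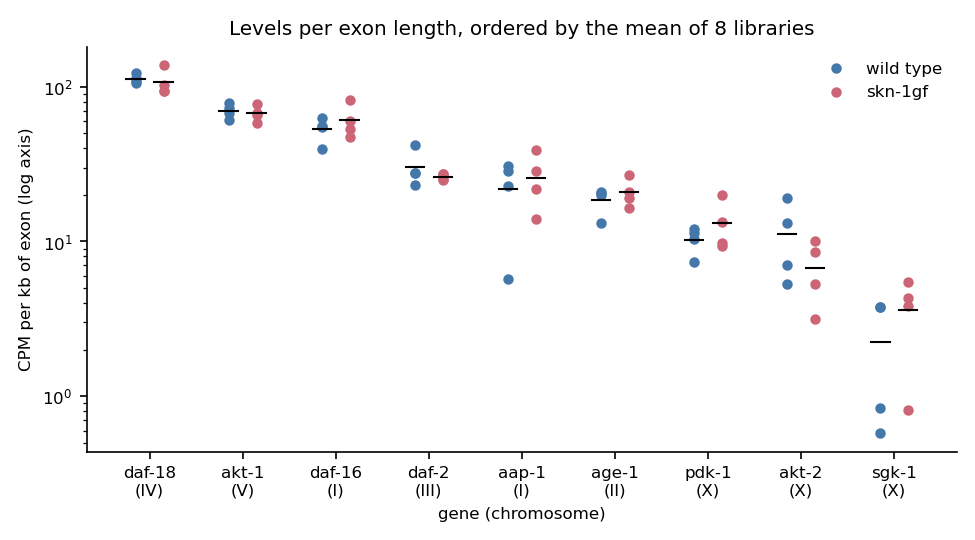
Levels of the 9 pathway genes as CPM per kb of exon on a log axis, ordered by the mean of 8 libraries. Points are libraries, 4 per genotype, and short bars are genotype means; the chromosome stands under each gene name, and the 3 X-linked genes lie at the low end.

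The order was firm in some places and not in others. In all 8 libraries daf-18 lay above akt-1, by 1.39 to 1.78-fold per kb, daf-16 above daf-2, by 1.49 to 3.03-fold, and akt-2 above sgk-1. Between akt-1 and daf-16 the order held in 7 libraries, and between aap-1 and age-1 and between pdk-1 and akt-2 in 6. Neither daf-2 nor aap-1 was above the other in more than 4 of 8 libraries, so these neighbours did not differ beyond their spread.

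At the receptor, daf-2 (CELE_Y55D5A.5), the DAF-2 receptor gene with 7 annotated transcripts that were counted together, was at 229, 228, 349.6 and 193 CPM in wild-type libraries 1 to 4. The 4 skn-1gf libraries had 208, 209, 225 and 226 CPM, again in the order of their numbers. The skn-1gf libraries lay close to each other, inside the range of wild type, which was widened by replicate 3. Means were 249.9 ± 68.4 CPM in the wild-type libraries and 217 ± 9.94 CPM in the skn-1gf libraries, a log2 fold change of −0.20 (SE 0.26, 95% interval −0.77 to 0.36). The negative value rested on that library, since the log2 fold change was 0.001 without wild-type replicate 3.

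The catalytic subunit of the lipid kinase, age-1 (CELE_B0334.8), was at 80.3, 52.1, 78.2 and 82.4 CPM in wild-type libraries 1 to 4 and at 64.9, 106, 81.9 and 74.6 CPM in skn-1gf libraries 1 to 4. Wild-type replicate 2 was the lowest library and skn-1gf replicate 2 the highest. A log2 fold change of 0.16 (SE 0.28, 95% interval −0.45 to 0.77) became −0.001 without skn-1gf replicate 2, −0.015 with total-count scaling and −0.13 without both libraries numbered 2. An antisense neighbour, B0334.10, overlaps 4.89% of the annotated exon bases of age-1, and the strand setting of the counts is not given in the sources used here.

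Its adaptor gene aap-1 (CELE_Y110A7A.10) varied far more, from 10.4 to 70.9 CPM. In wild-type libraries 1 to 4 it was at 51.5, 10.4, 41.1 and 55.8 CPM, and in skn-1gf libraries 1 to 4 at 25.2, 70.9, 39.2 and 51.1 CPM. The lowest and highest libraries were again those numbered 2, as for age-1. Its log2 fold change of 0.23 (SE 0.50, 95% interval −0.86 to 1.32) turned to −0.082 without wild-type replicate 2, to −0.063 without skn-1gf replicate 2 and to −0.38 without both. Here too an antisense gene, Y110A7A.21, covers 7.53% of the exon bases.

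Both subunits work as 1 enzyme, and their ratio within a library does not depend on the scaling between libraries. The ratio of aap-1 to age-1, as counts per kb of exon, was 1.11 ± 0.473 in wild type and 1.21 ± 0.317 in skn-1gf and ran from 0.434 (wild-type replicate 2) to 1.49 (skn-1gf replicate 4). The adaptor thus changed more between libraries than its partner, and the genotypes overlapped.

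The opposing phosphatase gene daf-18 (CELE_T07A9.6) was among the steadiest genes measured. Its level was 378, 361, 350.0 and 406 CPM in wild-type libraries 1 to 4 and 313, 457, 314 and 339 CPM in skn-1gf libraries 1 to 4. Apart from skn-1gf replicate 2, the highest of all, the skn-1gf libraries lay below the wild-type libraries. Means were 374 ± 24.5 CPM in the wild-type libraries and 356 ± 68.7 CPM in the skn-1gf libraries, a log2 fold change of −0.071 (SE 0.25, 95% interval −0.62 to 0.47) that turned to 0.024 without skn-1gf replicate 1 and to 0.011 without skn-1gf replicate 3.

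Set against age-1, whose product makes the lipid that DAF-18 removes, daf-18 had 6.20 ± 1.34 in wild type and 5.16 ± 0.495 in skn-1gf times as many counts per kb of exon. By library this ratio was 5.54, 8.18, 5.28 and 5.82 in wild-type libraries 1 to 4 and 5.68, 5.10, 4.51 and 5.36 in skn-1gf libraries 1 to 4. More RNA of the phosphatase than of the kinase was counted in every library, and wild-type replicate 2 stood above the rest.

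The kinase that activates the AKT enzymes, pdk-1 (CELE_H42K12.1), was at 29.1, 25.0, 27.6 and 17.8 CPM in wild-type libraries 1 to 4 and 22.7, 23.5, 48.2 and 32.5 CPM in skn-1gf libraries 1 to 4. The highest library was skn-1gf replicate 3 and the lowest wild-type replicate 4, and the other 6 lay between. The pdk-1 log2 fold change of 0.35 (SE 0.41, 95% interval −0.54 to 1.24) was 0.091 without skn-1gf replicate 3.

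Of the AKT pair, akt-1 (CELE_C12D8.10) had the smallest spread between replicates of all members. It was at 155, 139, 166 and 178 CPM in wild-type libraries 1 to 4 and 133, 176, 154 and 150.04 CPM in skn-1gf libraries 1 to 4. The genotype ranges nearly coincided. Means were 159 ± 16.6 CPM in the wild-type libraries and 153 ± 17.7 CPM in the skn-1gf libraries, a log2 fold change of −0.056 (SE 0.23, 95% interval −0.56 to 0.45), which became 0.003 when wild-type replicate 4 was left out and 0.037 when skn-1gf replicate 1 was.

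Its paralogue akt-2 (CELE_F28H6.1) was lower and much more variable. In wild-type libraries 1 to 4 it had 16.8, 31.5, 45.8 and 12.7 CPM, from 159, 200, 324 and 158 counts. In skn-1gf libraries 1 to 4 it had 20.3, 7.53, 24.1 and 12.7 CPM, from 172, 56, 83 and 34 counts. Wild-type replicates 2 and 3 were the highest libraries, while wild-type replicates 1 and 4 lay within the skn-1gf range.

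The akt-2 difference was the largest negative one of the pathway, with means of 26.7 ± 15.1 CPM in the wild-type libraries and 16.149 ± 7.45 CPM in the skn-1gf libraries. A log2 fold change of −0.73 (SE 0.56, 95% interval −1.94 to 0.49) did not pass the test, and it was −0.33 without wild-type replicate 3. As a share of its paralogue, the ratio of akt-2 to akt-1 per kb of exon was 0.163 ± 0.0919 in wild type and 0.104 ± 0.0527 in skn-1gf, running from 0.0409 in skn-1gf replicate 2 to 0.264 in wild-type replicate 3. In every library akt-1 supplied most of the AKT transcript.

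The least abundant member was sgk-1 (CELE_W10G6.2), whose kinase acts beside AKT-1 and AKT-2 and is a target of the TOR complex 2 pathway. Counts were 58, 6, 44 and 17 in wild-type libraries 1 to 4 and 53, 10, 31 and 19 in skn-1gf libraries 1 to 4, or 6.14, 0.944, 6.22 and 1.37 CPM and 6.24, 1.34, 9.01 and 7.09 CPM. Wild-type replicates 2 and 4 and skn-1gf replicate 2 were low, and the remaining 5 libraries lay between 6.14 and 9.01 CPM. With a log2 fold change of 0.68 (SE 0.95, 95% interval −1.39 to 2.76), the interval extended past 2-fold in both directions, and single libraries left out moved the value between 0.32 and 1.05.

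At the end of the chain, daf-16 (CELE_R13H8.1), the FOXO gene with 11 annotated transcripts counted together, was at 205, 201, 232 and 145 CPM in wild-type libraries 1 to 4. The skn-1gf libraries had 196, 174, 303 and 222 CPM. Wild-type replicate 4 was the lowest library and skn-1gf replicate 3 the highest, as for pdk-1. Means were 196 ± 36.2 CPM in the wild-type libraries and 224 ± 56.4 CPM in the skn-1gf libraries, with a log2 fold change of 0.19 (SE 0.27, 95% interval −0.40 to 0.78). It was 0.022 without skn-1gf replicate 3, 0.072 without wild-type replicate 4 and 0.024 with total-count scaling.

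**Figure D2:**
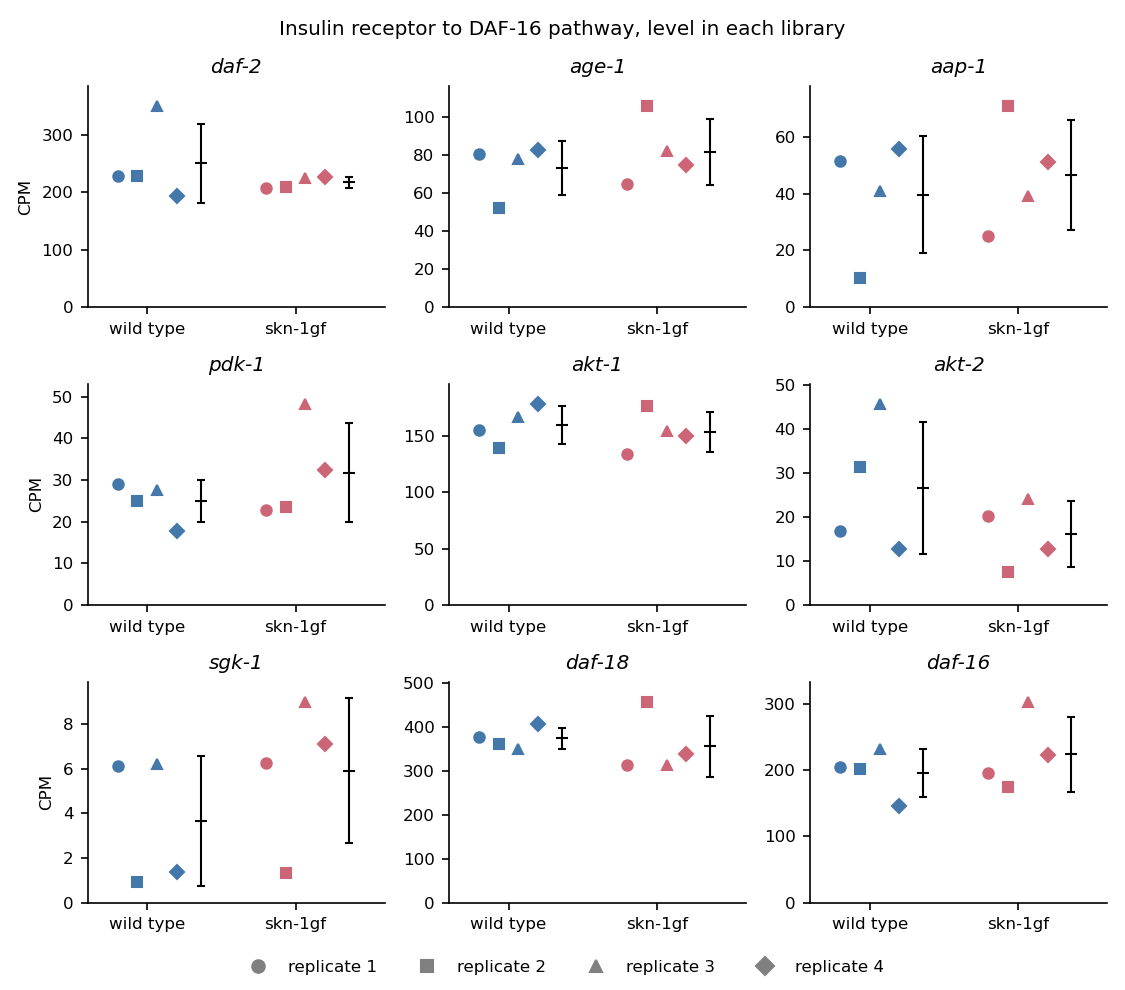
Level of each pathway gene in each library, in CPM on a linear axis that starts at 0. Symbols give the replicate number, colours the genotype, and black bars the mean ± SD of 4 libraries; the genotypes overlap in all 9 panels, and sgk-1 has 3 low libraries.

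The ratio of daf-16 to daf-2 compares both ends of the chain within each library. Per kb of exon it was 2.02, 1.98, 1.49 and 1.69 in wild-type libraries 1 to 4 and 2.12, 1.87, 3.03 and 2.21 in skn-1gf libraries 1 to 4. Means were 1.80 ± 0.251 in wild type and 2.31 ± 0.503 in skn-1gf. Of the skn-1gf libraries, replicates 1, 3 and 4 were above every wild-type library and replicate 2 was not. No test was made of these ratios, because the pairs were chosen with results of these data known.

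**Figure D3:**
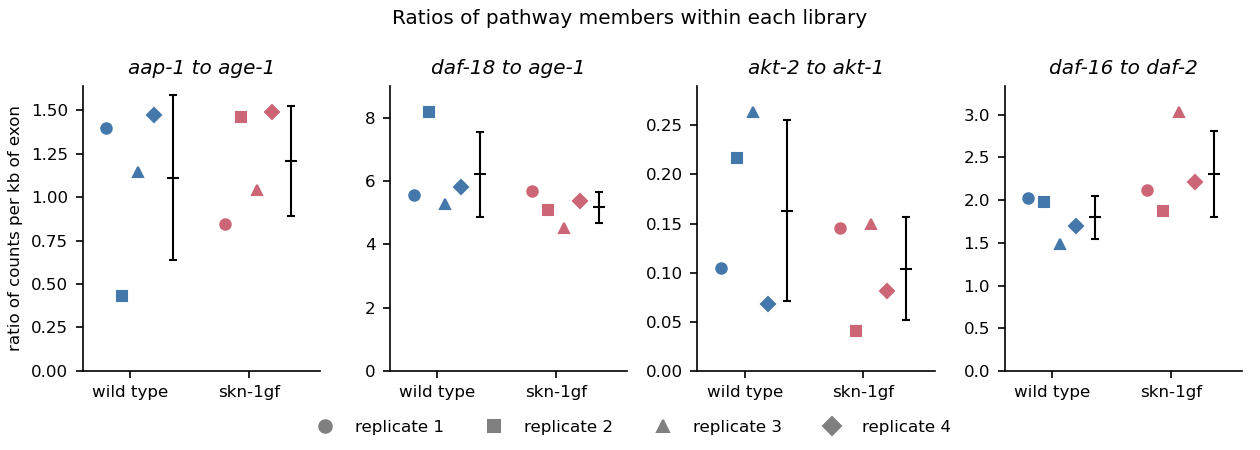
Ratios of pathway genes within each library, as counts per kb of exon on linear axes that start at 0. Symbols give the replicate number, colours the genotype and black bars the mean ± SD of 4 libraries; daf-18 exceeds age-1 and akt-1 exceeds akt-2 in all 8 libraries, and the genotypes overlap in each panel.

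For 5 members the data were precise enough to bound the difference. The 95% intervals of daf-2, age-1, akt-1, daf-18 and daf-16 lay within a 2-fold difference in either direction (log2 of 1), which 20.7% of all tested genes reached. These intervals are not adjusted for the number of genes. With single libraries left out the count of such members was 5 or 6, and with total-count scaling it was 4. The intervals of aap-1, pdk-1, akt-2 and sgk-1 extended past 2-fold on at least 1 side, so a difference of that size in these genes was not excluded.

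**Figure D4:**
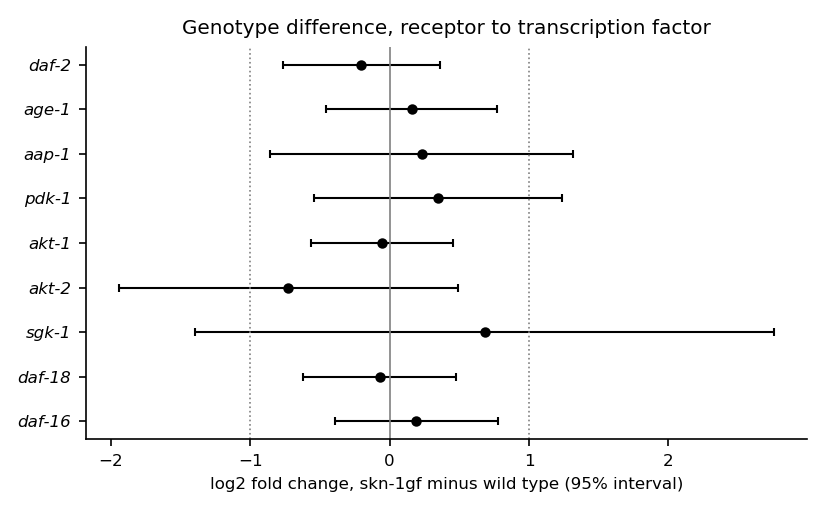
Log2 fold change of each pathway gene, skn-1gf minus wild type, with its 95% interval from edgeR. The solid line marks no difference and dotted lines mark 2-fold in either direction; all 9 intervals include 0, and 5 stay within the dotted lines.

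Spread between replicates set the members apart more than genotype did. The SD of log2 CPM within a genotype was 0.16 for akt-1 and 0.20 for daf-18, at percentiles 0.8 and 2.3 of the 6183 tested genes with a mean of at least 20 CPM, whose median was 0.51. For daf-2, age-1 and daf-16 it was 0.26, 0.30 and 0.32, and for pdk-1 0.42. At the other end, aap-1 had 0.91 and akt-2 0.78, at percentiles 81.0 and 75.4. These percentiles were not matched for level. Wild-type means were 159 CPM for akt-1 and 374 CPM for daf-18, but 39.7 CPM for aap-1 and 26.7 CPM for akt-2, nearer the floor of that set. The spread of sgk-1 was 1.21.

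In some libraries most members lay on the same side of their own means. In wild-type replicate 3, 8 of 9 members were above their own mean, with akt-2 and daf-2 at their highest. In wild-type replicate 2, 1 member (akt-2) was above it and age-1, aap-1 and sgk-1 were at their lowest. Some deviations behind these counts were close to 0 on the log2 scale. In wild-type replicate 2 they were −0.010 for daf-2, −0.003 for daf-18 and −0.033 for daf-16. In wild-type replicate 3 they were 0.037 for age-1 and 0.018 for pdk-1. In wild-type replicate 4, daf-2, pdk-1 and daf-16 were at their lowest and akt-1 at its highest, and the median deviation of the 9, −0.25 on the log2 scale, was the lowest of the 8 libraries. In skn-1gf replicate 1, 2 members were above their own mean, and daf-18 and akt-1 were at their lowest. In skn-1gf replicate 2, age-1, aap-1 and daf-18 were at their highest and akt-2 at its lowest. In skn-1gf replicate 3, pdk-1, sgk-1 and daf-16 were at their highest. Tissue markers moved between these libraries as well, with summed pan-neuronal levels of 736, 571, 2132 and 443 CPM in wild-type libraries 1 to 4 and 2056, 276, 2053 and 844 CPM in skn-1gf libraries 1 to 4. Intestine markers summed to 1067, 3120, 897 and 825 CPM and 2876, 265, 4115 and 2856 CPM in the same order. By genotype, log2 fold changes were negative in all 8 tested sperm markers (median −1.73). They were positive in all tested markers of ASI (5, median 2.15), glia (4, median 1.61), pharynx (8, median 1.135) and coelomocytes (3, median 0.64). Only 5 of 8 listed ASI markers and 4 of 8 listed glia markers were tested. The skn-1gf libraries did not share a rise in these lists. Replicate 2 had the lowest ASI (11.2 CPM), glia (79.5 CPM) and pharynx (73.7 CPM) sums of all libraries, though the highest coelomocyte sum (331 CPM). The remaining lists held both signs, with 7 positive and 7 negative in germline (median 0.001). No marker gene was called. The part of tissue content in the spread of the pathway genes, or in their genotype differences, was not tested.

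**Figure D5:**
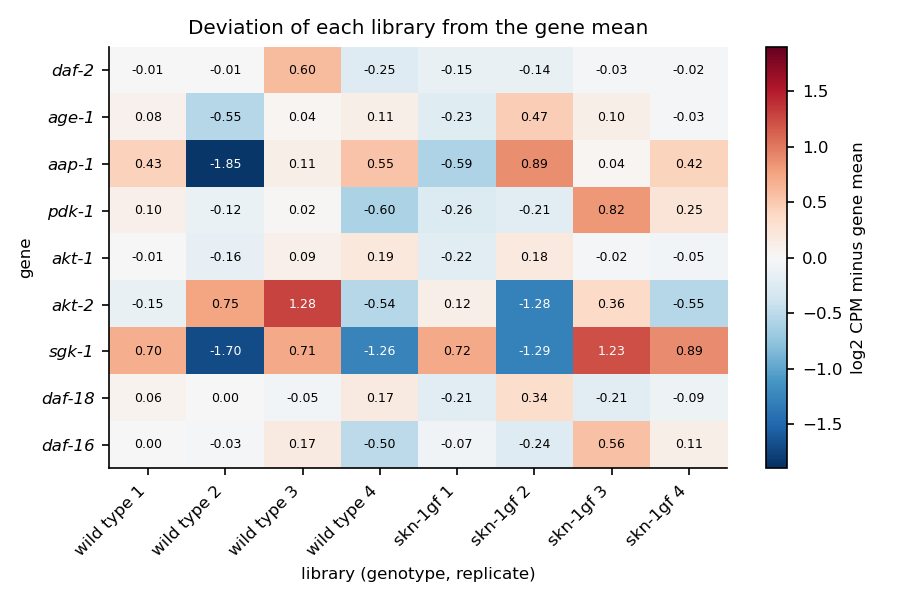
Deviation of each library from the mean of the gene, in log2 CPM, for the 9 pathway genes in 8 libraries. Red is above and blue below the mean; akt-1 and daf-18 stay near 0 throughout, while aap-1, akt-2 and sgk-1 reach deviations beyond 1.2 in at least 1 library.

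Genes whose profile over the 8 libraries was closest to that of daf-2 were cdh-4, tos-1 and nhl-2, at root mean square differences of 0.13, 0.19 and 0.21 log2 units. The measure compares log2 CPM values centred on each gene's own mean and takes only genes at least as variable as the member. Its median over all 12282 such genes was 0.93 for daf-2. For daf-16 the closest were let-526, gbf-1 and spsb-1 at 0.11, 0.12 and 0.14, with a median of 0.95 over 11858 genes. The SD of log2 CPM over the libraries was only 0.26 for daf-2 and 0.31 for daf-16. Both medians therefore largely follow the spread of the genes taken. They do not measure how far the closest genes, picked from all of these, vary together with the member, which was not tested.

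Known regulators of the chain were taken as a list of 27 genes, of which 24 passed the low-count filter. None passed the test in either direction, and none was free of overlap between genotypes. The log2 fold change was positive in 20 and negative in 4 of the 24, with a median of 0.26, beside 53.7% positive and a median of 0.04 over all tested genes. That number was 13 of 24 with total-count scaling, 15 of 24 without skn-1gf replicate 2, 18 of 24 without wild-type replicate 2 and 14 of 24 without both libraries numbered 2.

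By smallest p the regulators were led by cst-1, a Hippo-type kinase gene, at 4.03, 0.944, 7.63 and 5.40 CPM in wild-type and 26.4, 5.25, 5.52 and 3.73 CPM in skn-1gf libraries 1 to 4. The cst-1 log2 fold change of 1.19 (SE 0.90, 95% interval −0.75 to 3.14) rested on skn-1gf replicate 1, without which it was 0.11, and it has a close paralogue, cst-2 (named outside the rule for naming genes), with which it may share reads. The 14-3-3 gene ftt-2, whose protein holds phosphorylated DAF-16 in the cytoplasm, was at 339 ± 91.9 CPM in the wild-type libraries and 489 ± 295 CPM in the skn-1gf libraries, and its log2 fold change of 0.53 was 0.064 without skn-1gf replicate 3. The other 14-3-3 gene, par-5, also named outside that rule, had a log2 fold change of 0.003.

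The phosphatase subunit gene pptr-1, which directs dephosphorylation of AKT-1, was at 99.5 ± 25.6 CPM in the wild-type libraries and 129 ± 37.3 CPM in the skn-1gf libraries. For pptr-1 a log2 fold change of 0.38 (SE 0.30, 95% interval −0.28 to 1.03) had the narrowest interval of these leading regulators. The adaptor gene shc-1 was at 7.75 ± 2.87 CPM in the wild-type libraries and 12.277 ± 5.38 CPM in the skn-1gf libraries, with a log2 fold change of 0.67 (SE 0.65, 95% interval −0.74 to 2.07). The 3 regulators below the filter, eak-3, eak-4 and sdf-9, are known from the pair of XXX neuroendocrine cells and had at most 3, 9 and 7 counts in a library.

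Target genes of DAF-16 give a further view of the end of the chain. Of 28 matched genes that DAF-16 is known to raise, 22 were tested and none passed, with 11 positive and 11 negative log2 fold changes and a median of −0.11. Leaving out skn-1gf replicate 3 gave a median of −0.45 and leaving out skn-1gf replicate 2 turned it to 0.19, while limma-voom had 6 of 22 positive. At an unadjusted p under 0.05 there was 1 gene in each direction, where all tested genes had 1.44% higher and 2.62% lower.

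The noncoding RNA gene tts-1 was at 137, 97.4, 171 and 164 CPM in wild-type libraries 1 to 4 and 123, 20.2, 54.3 and 42.5 CPM in skn-1gf libraries 1 to 4. Of the skn-1gf libraries, replicate 1 lay within the wild-type range and the others below it, for a log2 fold change of −1.24 (SE 0.46, 95% interval −2.24 to −0.25). In the other direction dod-6 was at 376, 272, 129.8 and 191 CPM and 748, 249, 1275 and 237 CPM, with skn-1gf replicates 1 and 3 above the rest and a log2 fold change of 1.37 (SE 0.54, 95% interval 0.20 to 2.54) that was 0.77 without skn-1gf replicate 3. For both, the edgeR adjusted p was 0.999884, and without a low-count filter dod-6 alone of the list was called (adjusted p = 0.0394 in edgeR).

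Both metallothionein genes, which bind metals and respond to DAF-16, had lower means in skn-1gf. For mtl-1 the counts were 32, 0, 39 and 45 in wild-type libraries 1 to 4 and 0, 1, 6 and 1 in skn-1gf libraries 1 to 4. Libraries differed in depth, and after scaling the mtl-1 means in CPM were 3.13 ± 2.29 (wild type) and 0.563 ± 0.802 (skn-1gf). The mtl-1 log2 fold change was −2.61 (SE 1.57), with a 95% interval of −6.02 to 0.81 that included 0, and the genotypes overlapped. For mtl-2 levels were 16.352 ± 9.73 CPM in the wild-type libraries and 6.79 ± 6.95 CPM in the skn-1gf libraries, with a log2 fold change of −1.25 (SE 0.82, 95% interval −3.04 to 0.53). The superoxide dismutase gene sod-3, the usual reporter of DAF-16 and named here outside the rule for naming genes, was at 4.55, 0, 1.13 and 7.18 CPM in wild-type and 8.01, 3.77, 4.07 and 2.61 CPM in skn-1gf libraries 1 to 4. With a log2 fold change of 0.52 (SE 1.17, 95% interval −2.02 to 3.05), the interval of sod-3 covered both directions widely.

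Of 14 genes that are known to be lower when DAF-16 is active, 8 were tested and none passed. None of the 8 had a 95% interval within 2-fold in either direction, beside 20.7% of all tested genes. The log2 fold change was positive in 5 and negative in 3, with a median of 0.82 that ran from 0.26 to 1.26 with single libraries left out. Over all tested genes 53.7% were positive, with a median of 0.04. The smallest p was that of dod-24, an innate immune gene, at 4.87, 11.3, 9.33 and 0.726 CPM in wild-type and 72.6, 2.69, 24.1 and 27.6 CPM in skn-1gf libraries 1 to 4. Its log2 fold change of 2.29 (SE 0.93, 95% interval 0.26 to 4.31) was 1.49 without skn-1gf replicate 1. The edgeR adjusted p of dod-24, picked as the smallest p of its list, was 0.999884. It was the 1 gene of the list at an unadjusted p under 0.05, where 1.44% of all tested genes were higher at that threshold.

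Levels of dod-23 were 13.6 ± 4.01 CPM in the wild-type libraries and 32.2 ± 26.1 CPM in the skn-1gf libraries, and the yolk protein gene vit-5 had a log2 fold change of 0.89 (SE 0.67, 95% interval −0.57 to 2.35), with 0.75 for its relative vit-2. Yolk genes are near-identical copies in part, and reads that align to several places were not assigned. They are made in the intestine, whose 11 markers had 7 of 10 tested members positive and a median log2 fold change of 0.43, and the part of intestinal RNA in these values was not tested. In skn-1gf replicate 2, where intestine markers were lowest, dod-24, dod-23, vit-5 and vit-2 were each lowest among the skn-1gf libraries. For dod-24, wild-type replicate 4 was lower still, at 0.726 CPM. The low sum was not confined to intestine in skn-1gf replicate 2. Its pan-neuronal (276 CPM), body wall muscle (7282 CPM), hypodermis (130 CPM) and pharynx (73.7 CPM) sums were also the lowest of all libraries. Its germline (6901 CPM) and coelomocyte (331 CPM) sums were the highest. The intestine marker list itself holds mtl-2 and another yolk gene, vit-3 (named outside the rule for naming genes). Its sum and median are therefore not independent of the yolk genes.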

How the data were processed

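The authors deposited raw whole-number counts, in 1 file for each library, with 46928 gene rows and 5 summary lines, which were left out. The submitters' processing notes list HTSeq 2.0.2, STAR 2.7.6a, R 3.5.2 and DESeq2 as tools and ce10 as genome build. How strand and duplicates were handled, and with which annotation release, is not given in the sources used here. Locus tags were matched to symbols (46919 of them) in a RefSeq gene table of WBcel235, and exon lengths, overlaps and chromosome names came from the Ensembl annotation of the same assembly, with no coordinates used because the files' build differs. Reads aligned to several places were not counted. They made up 12.29 to 30.3% of the sum of counted, featureless, ambiguous and multiply aligned reads.

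Genes were filtered with filterByExpr (minimum count 10, minimum total 15), scaled by TMM and tested with edgeR 4.0.16 in R 4.3.3 (quasi-likelihood, genotype alone). Benjamini-Hochberg adjustment covered 12734 genes, with a threshold of 0.05. Fold changes are unshrunken, log2 CPM for profiles and spread used a prior count of 2, and intervals come from the same model. Alternatives were DESeq2 1.42.0, limma-voom (limma 3.58.1), RLE, upper-quartile and total-count scaling, no or a stricter filter (1 CPM in 4 libraries), protein-coding genes only, the replicate number as a block, and libraries left out. The tools were tested on simulated data. Named genes are all members, the 4 with the smallest p of each further list, the 3 closest profiles of daf-2 and daf-16, and genes said to lie outside this rule. The members, lists and tests were chosen with earlier results of these data known, and the ratio of aap-1 to age-1 was added after the values were seen. Lists were written from general knowledge, and 1 name (dod-8) was not matched.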

Additional observations from a re-analysis of the deposited data

Results flagged for a closer look

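Of 26 sets of 4 libraries checked (the 9 pathway genes and 4 ratios in both genotypes), 1 held a library far from the other 3, where chance marks about 1 in 20. In wild-type replicate 2, age-1 was at 52.1 CPM, and the other wild-type libraries lay between 78.2 and 82.4 CPM. The gap was 0.86 of the whole wild-type range. The same library had the lowest aap-1 level of all, 10.4 CPM from 66 counts, while daf-18 and akt-1 there were 361 and 139 CPM. It also had the highest summed levels of sperm markers, 1072 CPM, and of hypodermis markers, 1872 CPM, of all libraries. Its germline (6701 CPM), intestine (3120 CPM) and body wall muscle (24543 CPM) sums were the highest of the wild-type libraries. Its pan-neuronal sum, 571 CPM, was not. In the same library rRNA genes took 32.8% of gene counts, against 6.90 to 21.8% in the others, and 11909 genes were detected, against 14248 to 20394. Their part in the low age-1 value was not tested.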

How the results depend on the processing

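No pathway gene and no regulator was called under any of the 19 alternatives. Over all genes 0 were called in the main analysis, 6 with DESeq2 on the same genes, 3 with DESeq2 without the filter and 159 without a low-count filter in edgeR, where 1 gene raised by DAF-16 (dod-6) was among them. Leaving out single libraries called 0 genes. The sign of pdk-1, akt-2, sgk-1 and daf-16 held under all 19, at values near 0 for daf-16. With single libraries left out, log2 fold changes ran from −0.31 to 0.001 for daf-2, −0.001 to 0.28 for age-1, −0.082 to 0.46 for aap-1, −0.14 to 0.037 for akt-1, 0.022 to 0.29 for daf-16, 0.32 to 1.05 for sgk-1, 0.091 to 0.50 for pdk-1, −1.001 to −0.33 for akt-2 and −0.23 to 0.024 for daf-18. Without both libraries numbered 2, aap-1 was −0.38 and age-1 −0.13, and with total-count scaling age-1 was −0.015. The cause was not tested. Total-count scaling moved the median of all genes from 0.04 to −0.12. The replicate block called 0 genes, with daf-2 at −0.17 and akt-2 at −0.67. Same-numbered libraries correlated in their deviations at −0.014, 0.064, 0.513 and 0.059 for numbers 1 to 4, and not every library correlated best with its own number, so the number was not taken as a pairing. With single libraries left out, the difference in mean log2 ratio, skn-1gf minus wild type, ran from −0.32 to −0.11 for daf-18 to age-1, from −0.98 to −0.23 for akt-2 to akt-1, from 0.21 to 0.44 for daf-16 to daf-2 and from −0.18 (without wild-type replicate 2) to 0.41 for aap-1 to age-1. Counts were fewest for sgk-1, at 238 counts over 8 libraries.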

Other observations

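The 3 libraries lowest in sgk-1, wild-type replicates 2 and 4 and skn-1gf replicate 2, were also the 3 lowest in daf-7, the gene whose promoter marked the sort, at 0.472, 2.26 and 1.61 CPM. In the other libraries daf-7 was at 7.94 and 7.49 CPM (wild-type replicates 1 and 3) and 35.9, 34.0 and 9.33 CPM (skn-1gf replicates 1, 3 and 4). The same 3 were lowest in the summed pan-neuronal, ciliated neuron and glia markers, which are 3 of the 11 marker lists. Germline markers went the other way there, at 6701, 6310.5 and 6901 CPM, the 3 highest sums of the 8 libraries. The summed ASI markers, which include daf-7, did not share this order. Wild-type replicate 4 and skn-1gf replicate 2 were low, at 11.5 and 11.2 CPM. Wild-type replicate 2, at 25.0 CPM, had the highest ASI sum of the wild-type libraries. These are orders seen in the data, given as values, and no relation between them was tested.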
